A study of Homo sapiens with 6 samples.

Results

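IER2, IER3, IER5, IER5L, CSRNP1, CSRNP2, ZFP36, ZFP36L1, ZFP36L2 and BTG2 are early-response genes outside the AP-1, EGR and NR4A factor families. They were taken by name, 10 genes of 60663 in the count table, and all 10 were among the 19836 genes abundant enough to be tested. RNA was sequenced from 5637 cells, an established human bladder cancer line, 48 h after co-transfection. The tested cells received dCas13b-FTO with a guide RNA against HRAS (3 libraries), and the reference cells dCas13b-FTO with a control guide (3 libraries). dCas13b-FTO is an RNA-guided, catalytically dead Cas13b joined to the RNA demethylase FTO, whose substrate is N6-methyladenosine, and the series description gives it to both groups, whereas the sample titles name dCas13b alone. Whether the 3 libraries within each group are separate cultures is not stated in the labels, and the p-values speak only of the spread among libraries, which may be technical.

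Early-response genes are transcribed within minutes of a growth factor or stress signal without new protein synthesis, in large part through the RAS-ERK pathway, and their mRNAs are short-lived. Many of these mRNAs carry AU-rich elements in the 3′ UTR. ZFP36 proteins bind such elements and bring in the CCR4-NOT complex, which shortens the poly(A) tail, and BTG2 also binds a deadenylase of that complex, so several of these genes encode proteins that end the response they belong to.

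All 10 mRNAs had a lower fitted level with the HRAS guide. However, none of the 10 passed in the test across all genes, which called 0.0101% of all genes lower. The differences ran from CSRNP1, at 56.6% of the control level, to CSRNP2, at 92.8%. CSRNP1, ZFP36 and IER3 had the largest fitted differences without correction, although the interval of IER3 lay within that of IER2. The libraries' trend along the GC content and length of the median transcript was then taken out. CSRNP1 and IER3 passed by the same test and ZFP36 did not, where 0.19% of all genes were called lower. With the longest transcript in its place, a choice made after seeing the data, these 3 fell and the other 7 did not pass. There 0.292% of all genes were called lower. With 1 library left out, IER3 and ZFP36 each passed there in 2 of 6 fits.

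Library totals ran from 24968702 to 32283370 counts. HRAS mRNA, the guide's target, stood at 184 ± 16.5 CPM (CPM being counts scaled to a common library size) with the HRAS guide and 182 ± 43.7 CPM with the control guide (SD, n = 3 each), a log2 fold change of 0.01 ± 0.15 (SE, edgeR adjusted p = 1.00). FTO stood at 31.2 ± 0.237 and 35.4 ± 3.03 CPM in the same order. Of 13 urothelial and epithelial markers, 12 were tested, and 0 passed or had an unadjusted p under 0.05 in edgeR. KRT5 was at 1723 CPM with the HRAS guide and 1778 CPM with the control guide, while UPK3A stayed under 1 CPM in every library. Of the immune cell markers, PTPRC, CD3E and LYZ were also under 1 CPM in every library, while CD14 stood at 4.79, 4.34 and 3.13 CPM with the HRAS guide, against 2.60, 3.62 and 3.44 CPM with the control guide (log2 fold change 0.34 ± 0.20, edgeR adjusted p = 1.00). Of 7 fibroblast, muscle and endothelial markers, 5 had a mean under 1 CPM. COL1A1 of that list stood at 165 CPM with the HRAS guide and 175 CPM with the control guide. Of 5 markers of HEK293 and neural cells, 2 had a mean under 1 CPM, and SOX2 stood at 102 and 105 CPM in the same order. Libraries of the same guide differed in how GC-rich genes were counted. Between a gene's GC content and its relative log2 CPM, Spearman's rho was 0.42, -0.67 and 0.11 in HRAS guide libraries 1, 2 and 3, and -0.62, 0.76 and -0.33 in control libraries 1, 2 and 3. These values are across 14007 genes, and genes are no independent replicates.

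The core heptamer of the AU-rich element, TATTTAT, was searched on the sense strand of the 3′ UTR of the longest coding transcript of each gene (GENCODE 29, GRCh38), counting overlapping copies. It was present in 8 of the 10, against 30.8% of 19078 3′ UTRs. Longer UTRs hold it more often, so the share among UTRs within 20% of each gene's own length ran from 19.5% for ZFP36 to 55.3% for IER5. IER3 (903 bases of UTR) and IER5 (3013 bases) held 4 copies each, and ZFP36 (713 bases), ZFP36L1 and ZFP36L2 held 3 each. CSRNP1, CSRNP2 and BTG2 held 1 each, and IER2 and IER5L none. The longer TTATTTATT was found in 5 of the 10, against 8.14% of all 3′ UTRs. A match is a description of the letters and was not measured as a site here. The sites below, 27 bases each and with the heptamer of the site in capitals, are all those of ZFP36 and 1 or 2 of each other gene shown. The other genes are the remaining 2 of the 3 genes of largest difference, both ZFP36 relatives and BTG2. The first IER3 window ends in another heptamer, a separate site left in lower case.

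ZFP36, from UTR base 483, chr19:39409182-39409208, plus strand: atgggcccttTATTTATgacgacttta
ZFP36, from UTR base 498, chr19:39409197-39409223, plus strand: atgacgacttTATTTATtctaatatga
ZFP36, from UTR base 523, chr19:39409222-39409248, plus strand: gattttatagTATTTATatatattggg
IER3, from UTR base 422, chr6:30743654-30743680, minus strand: tcctaattaaTATTTATatgtatttat
IER3, from UTR base 474, chr6:30743602-30743628, minus strand: gtgtacgtaaTATTTATtttaacttat
CSRNP1, from UTR base 143, chr3:39142886-39142912, minus strand: tctctggattTATTTATttgttttaac
ZFP36L1, from UTR base 1429, chr14:68788078-68788104, minus strand: actgttggatTATTTATtttagaaatt
ZFP36L2, from UTR base 844, chr2:43223449-43223475, minus strand: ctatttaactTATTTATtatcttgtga
BTG2, from UTR base 91, chr1:203307529-203307555, plus strand: aatgaagagcTATTTATatatattatt

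The 4 IER genes have a single exon in their longest coding transcript. IER3 encodes a stress-induced protein that acts on cell survival and ERK signalling (ENSG00000137331, chromosome 6, 30743199 to 30744554, minus strand). Its level was 191, 169 and 188 CPM in the 3 HRAS guide libraries (replicates 1 to 3 in turn), against 218, 252 and 229 CPM in the 3 control libraries. Every HRAS guide library lay below every control library. The log2 fold change, HRAS guide minus control guide, was -0.35 ± 0.09 (SE) and its 95% interval ran from -0.55 to -0.16 (edgeR adjusted p = 0.904). Its unadjusted p of 0.00262 ranked 57th of 19836 genes. Exons of IER3-AS1 on the opposite strand cover 26.5% of its exon bases. That gene held at most 9 counts in a library, against at least 4742 for IER3. Whether strand was used in counting is not known, so these counts cannot show whether reads of the overlap were left out.

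IER2 encodes a nuclear protein and regulator of transcription (ENSG00000160888, chromosome 19, 13150415 to 13154908, plus strand). It stood at 172, 144 and 160 CPM in the 3 HRAS guide libraries (replicates 1 to 3 in turn), against 149, 234 and 171 CPM in the 3 control libraries. The groups overlapped, with control replicate 2 far above the rest. The difference was -0.22 ± 0.15 on the log2 scale, with an interval of -0.55 to 0.12 (edgeR adjusted p = 1.00), and it shrank to -0.01 without control replicate 2.

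IER5L, a relative of IER5 (ENSG00000188483, chromosome 9, 129175552 to 129178262, minus strand), was highest in control replicate 2 and lowest in HRAS guide replicate 2, as IER2 was. It stood at 87.5, 70.7 and 86.3 CPM with the HRAS guide, against 76.5, 113 and 88.3 CPM with the control guide. The groups overlapped, and without control replicate 2 the difference of -0.18 ± 0.15 became -0.02. IER2 and IER5L are among the GC-rich transcripts, with 92.1% and 96.3% of tested genes below them in GC content, and control replicate 2 is the library with the highest rho between GC content and level. ZFP36 (91.3%), ZFP36L1 (89.7%) and CSRNP2 (88.2%) are about as GC-rich by this measure, the median over transcripts, and ZFP36L1 and CSRNP2 had their lowest control level in that library. In the longest coding transcript the GC content was 61.7% for IER2 and 65.0% for IER5L. It was 57.3% for ZFP36, 49.5% for ZFP36L1 and 48.7% for CSRNP2, so the likeness in GC content depends on the transcript taken. The part of GC content in the high values of IER2 and IER5L was not tested by this. IER5 encodes a protein that binds the phosphatase PP2A and acts on the heat-shock factor HSF1 (ENSG00000162783, chromosome 1, 181088712 to 181092899, plus strand). It has a GC content near the middle of the tested genes. It was at 161, 144 and 149 CPM with the HRAS guide, against 159, 173 and 169 CPM with the control guide. Its groups overlapped through a single pair of libraries, and the difference was -0.14 ± 0.08. The antisense gene AC011446.2 covers 30.8% of the exon bases of IER2 and had 0 counts in every library, and AL158151.1 covers 13.5% of those of IER5L and had at most 4. AL158151.3 covers 25.7% of those of IER5L and had no row with values in the deposited counts. It is not known whether strand was used in counting, so counts of IER2 and IER5L are uncertain to the extent of these overlaps.

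**Figure D1:**
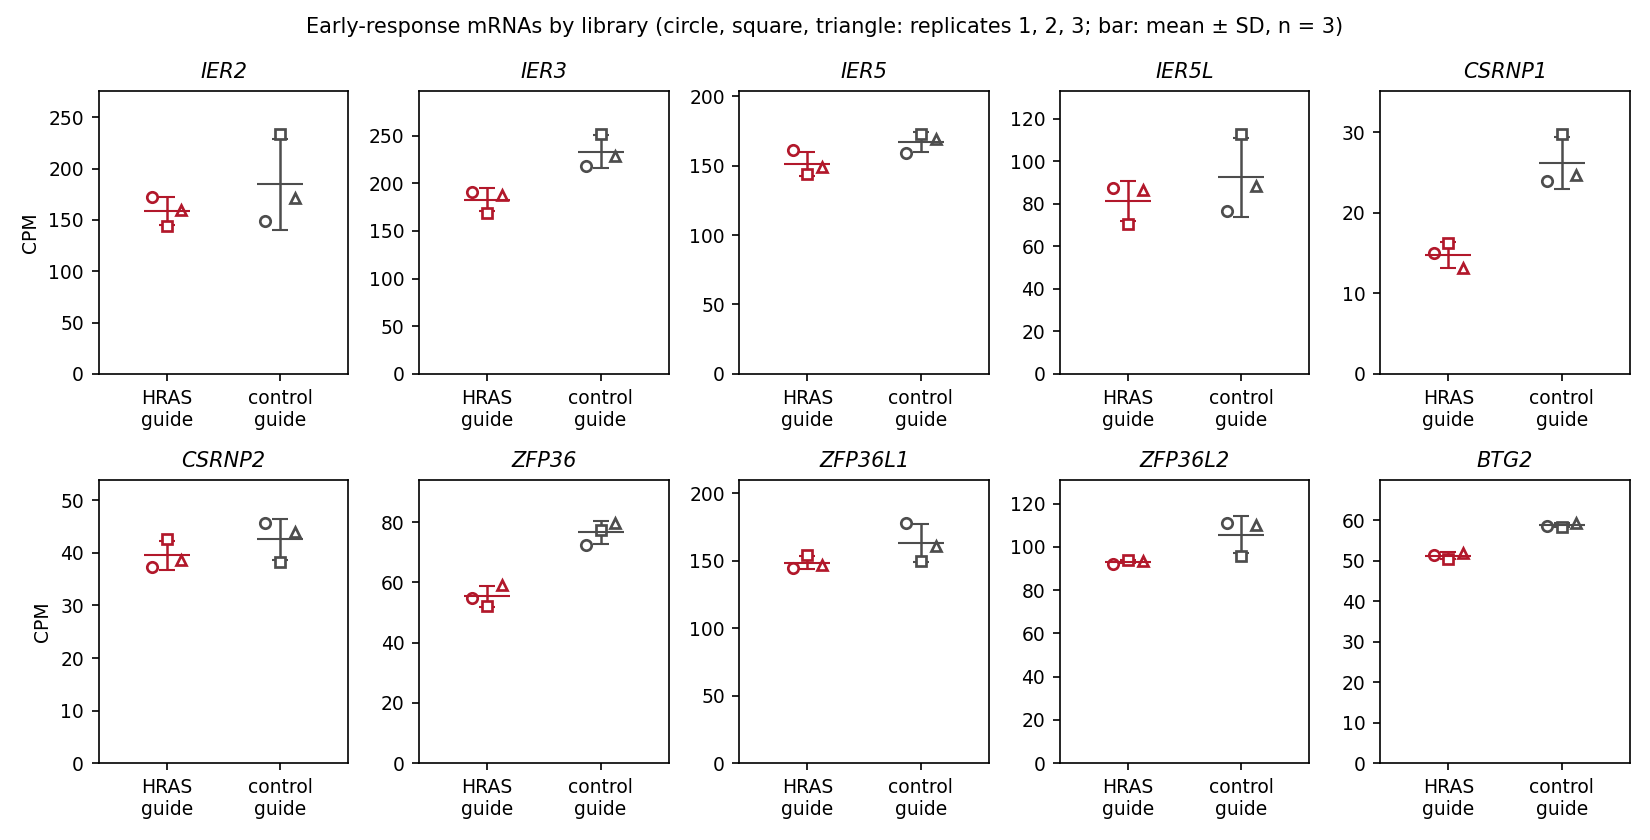
Level in CPM of each of the 10 mRNAs in the 3 HRAS guide libraries (red, left) and the 3 control guide libraries (grey, right) of each panel. Symbols are replicates, and bars are the mean ± SD. The groups do not overlap for IER3, CSRNP1, ZFP36, ZFP36L2 and BTG2, while control replicate 2 stands high for IER2 (234 CPM) and IER5L (113 CPM).

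CSRNP1 and CSRNP2 encode cysteine- and serine-rich nuclear proteins that act as transcriptional activators. CSRNP1 (ENSG00000144655, chromosome 3, 39141855 to 39154562, minus strand) had the largest fitted difference of the 10. It stood at 15, 16.3 and 13.1 CPM in the 3 HRAS guide libraries (replicates 1 to 3 in turn), against 23.9, 29.8 and 24.7 CPM in the 3 control libraries. The highest HRAS guide library was below the lowest control library by a wide margin. These levels rest on 374 to 477 counts per library with the HRAS guide and 691 to 822 with the control guide. The log2 fold change was -0.82 ± 0.13, with an interval of -1.10 to -0.54, and its unadjusted p of 7.27e-05 ranked 10th of 19836. It did not pass in edgeR (adjusted p = 0.144) and passed in DESeq2 (adjusted p = 4.13e-05). Leaving out control replicate 2 gave -0.72 and an edgeR adjusted p of 0.00578. An antisense gene, AC092053.2, covers 6.3% of its exon bases and held 14 to 38 counts per library, and the use of strand in counting is not known.

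CSRNP2 (ENSG00000110925, chromosome 12, 51061205 to 51083664, minus strand) was at 37.3, 42.7 and 38.6 CPM with the HRAS guide, against 45.7, 38.2 and 43.9 CPM with the control guide. Its groups overlapped, HRAS guide replicate 2 being the highest of its group and control replicate 2 the lowest of its own. The difference was -0.11 ± 0.11, with an interval of -0.35 to 0.13. CSRNP1 and CSRNP2 therefore had intervals that do not meet, although the difference between these genes was not itself tested.

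ZFP36, known as tristetraprolin, is the best-studied protein of its family (ENSG00000128016, chromosome 19, 39406813 to 39409412, plus strand). Its mRNA was at 54.9, 52.2 and 59.1 CPM in the 3 HRAS guide libraries (replicates 1 to 3 in turn), against 72.5, 77.5 and 79.7 CPM in the 3 control libraries. The groups lay far apart relative to their spread, with means of 55.4 ± 3.49 CPM and 76.6 ± 3.68 CPM in that order (SD, n = 3 each). The log2 fold change was -0.47 ± 0.09, with an interval of -0.67 to -0.26. It ranked 23rd by p, did not pass in edgeR (adjusted p = 0.417) and passed in DESeq2 (adjusted p = 0.0138). In edgeR it passed without control replicate 2 (adjusted p = 0.0448).

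Both relatives bind the same element and also promote decay of the mRNAs that carry it. ZFP36L1 (ENSG00000185650, chromosome 14, 68787660 to 68796253, minus strand) was at 145, 154 and 147 CPM with the HRAS guide, against 178, 150 and 161 CPM with the control guide. Its groups overlapped through HRAS guide replicate 2 and control replicate 2, and the difference was -0.13 ± 0.09. ZFP36L2 (ENSG00000152518, chromosome 2, 43222402 to 43226609, minus strand) was at 92.2, 93.7 and 93.3 CPM with the HRAS guide, against 111, 95.7 and 110 CPM with the control guide. Its groups did not overlap, but control replicate 2 was close to the HRAS guide libraries. The difference was -0.19 ± 0.09, with an interval of -0.38 to 0.01. In bulk RNA a lower level in every cell and fewer cells with a high level cannot be told apart, for these genes and all others here.

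BTG2 encodes an antiproliferative protein, induced by p53 among other signals, that binds the CCR4-NOT deadenylase (ENSG00000159388, chromosome 1, 203305491 to 203309602, plus strand). It was at 51.5, 50.3 and 51.9 CPM with the HRAS guide, against 58.6, 58.3 and 59.3 CPM with the control guide. The libraries of each group lay close together, with SDs of 0.822 and 0.544 CPM, and the groups did not overlap. The difference was nevertheless small, -0.20 ± 0.08, with an interval of -0.39 to -0.01 and an edgeR adjusted p of 1.00 (unadjusted p = 0.0419).

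Promoters of 8 of the 10 genes, from 250 bases before to 50 after the start, were in the RefSeq table (GRCh38.p14). Only the first start listed was taken for each gene, so these 8 promoters leave out any other start. They were searched on both strands for the CArG box of serum response factor, the cAMP response element TGACGTCA, its shorter core TGACG, AP-1 TGANTCA, EGR GCGNGGGCG, ETS CCGGAAGT, the TATA box TATAAA and the GC box GGGCGG. The core lies inside the full element, and the EGR and GC box motifs can overlap. The CArG box, the full cAMP element, and the AP-1, ETS and TATAAA motifs were in none of the 8, where 1.29%, 1.85%, 7.71%, 4.14% and 11.5% of 35116 promoters of this length hold them. The TGACG core was in 3 (24.6% of all promoters), the GC box in 5 (45.0%) and the EGR motif in BTG2 only (9.43%). The BTG2 promoter is shown for its pair of EGR motifs, which with the TGACG core are in capitals.

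BTG2, chr1:203305269-203305568, plus strand: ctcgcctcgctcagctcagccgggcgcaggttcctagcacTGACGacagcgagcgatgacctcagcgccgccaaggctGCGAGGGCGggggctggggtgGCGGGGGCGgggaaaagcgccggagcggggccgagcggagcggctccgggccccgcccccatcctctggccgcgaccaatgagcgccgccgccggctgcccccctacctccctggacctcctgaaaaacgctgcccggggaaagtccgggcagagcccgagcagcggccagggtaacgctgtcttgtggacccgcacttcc

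The 10 genes were chosen with earlier results of these data known, so the counts below are a description. Counted over the 10 genes, 10 of 10 log2 fold changes were negative, where 50.5% of all genes tested were. The median was -0.19, against 0.00 over all genes tested. In 5 of the 10 every HRAS guide library lay below every control library, as in 4.0% of all genes tested. At an unadjusted p under 0.05, 4 of the 10 were lower, as were 1.7% of all genes. None was called at an adjusted p under 0.05 in edgeR, where 0.0101% of all genes were called lower. None was called by limma-voom or in edgeR with the replicate number as a block, each of which called 0.00504% of all genes lower. DESeq2 called CSRNP1 and ZFP36 lower, 2 of the 10, where it called 0.121% of 19910 genes lower.

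The libraries' GC trend was taken out as an alternative, by offsets fitted per library to the GC content and length of each gene's transcripts. With medians taken over each gene's transcripts, 2 of the 10 passed in edgeR, where 0.19% of all genes were lower. CSRNP1 fell by 0.78 ± 0.10 on the log2 scale (adjusted p = 0.00807) and IER3 by 0.33 ± 0.05 (adjusted p = 0.0154). ZFP36, at -0.44 ± 0.09, did not pass (adjusted p = 0.184). The median transcript of some of these genes is short: that of CSRNP2 has 630.5 bases, and its longest coding transcript 4471. With this correction the SD of CSRNP2 in control libraries was 9.70 CPM, and 3.94 CPM without it. That of ZFP36L1 was 34 CPM, and 13.8 CPM without it.

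With the longest transcript of each gene in place of the median, a choice made after seeing the data, CSRNP1, IER3 and ZFP36 all fell, 3 of the 10, where 0.292% of all genes were called lower. CSRNP1 fell by 0.78 ± 0.09 (edgeR adjusted p = 0.00141), ZFP36 by 0.46 ± 0.07 (adjusted p = 0.0114) and IER3 by 0.36 ± 0.05 (adjusted p = 0.00953). The standard error was smaller than without correction in all 10 genes. The groups did not overlap in 7 of the 10, as in 6.51% of all genes, and 9 of the 10, all but CSRNP2, had an unadjusted p under 0.05, as had 3.6% of all genes on the lower side. IER2 stood at 164, 157 and 159 CPM with the HRAS guide, against 165, 199 and 175 CPM with the control guide. IER5L stood at 82.6, 79.0 and 85.2 CPM, against 87.0, 92.9 and 90.6 CPM in the same order. These groups no longer overlapped, but neither gene passed, with log2 fold changes of -0.17 ± 0.06 and -0.13 ± 0.05. With this correction CSRNP1 passed without any single library. IER3 and ZFP36 passed without control replicate 1 or 2. Without any other library IER3 had adjusted p of 0.0714 to 0.11, and ZFP36 of 0.0541 to 0.124.

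**Figure D2:**
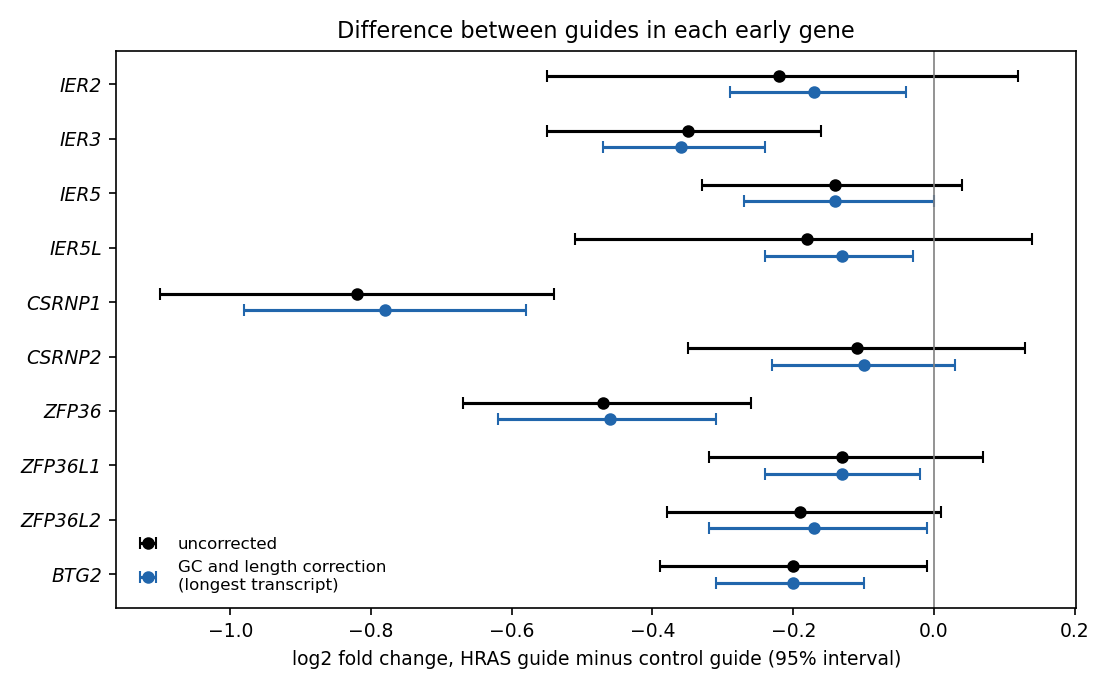
Log2 fold change, HRAS guide minus control guide, of each gene, without correction (black) and after the GC and length correction from the longest transcript (blue), from edgeR on 3 libraries per group. Bars are 95% intervals. CSRNP1 (-0.82 and -0.78), ZFP36 (-0.47 and -0.46) and IER3 (-0.35 and -0.36) lie furthest from 0, and the intervals of IER2 and IER5L narrow most.

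**Figure D3:**
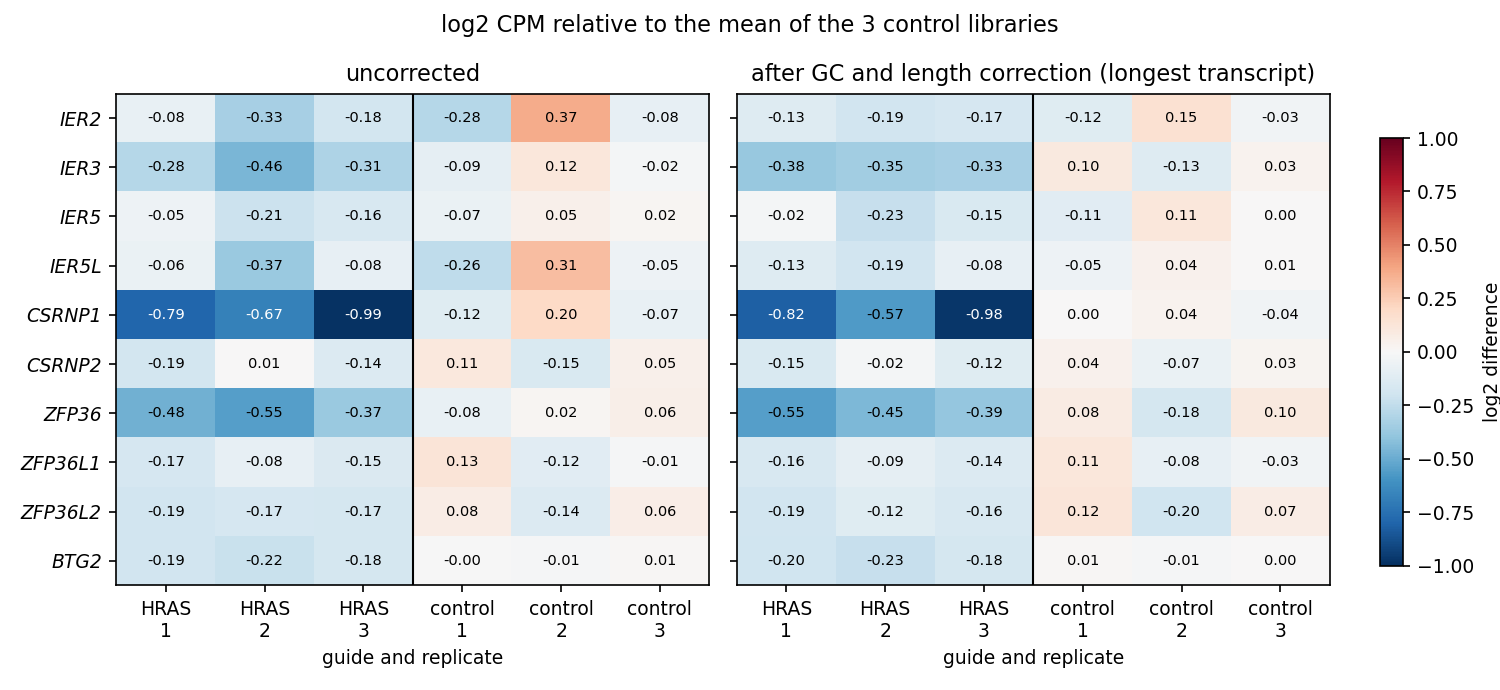
Log2 CPM of each gene in each library, relative to the mean over the 3 control libraries, without correction (left panel) and after the GC and length correction from the longest transcript (right panel). HRAS guide libraries are left of the black line and control libraries right of it. CSRNP1 is low in all 3 HRAS guide libraries in both panels, while the high value of IER2 in control replicate 2 (0.37 without correction) is smaller after it.

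Within the libraries of negative GC trend (HRAS guide replicate 2 against control replicates 1 and 3) the differences without correction were -0.58 for CSRNP1, -0.54 for ZFP36 and -0.41 for IER3. Within those of positive trend (HRAS guide replicates 1 and 3 against control replicate 2) they were -1.08 for CSRNP1, -0.44 for ZFP36 and -0.41 for IER3. BTG2 was at -0.23 and -0.17 in these sets. ZFP36L2 was at -0.24 and -0.04, ZFP36L1 at -0.13 and -0.04 and CSRNP2 at -0.07 and -0.01. IER2 was at -0.15 and -0.49, IER5L at -0.22 and -0.38 and IER5 at -0.19 and -0.16. All 10 were therefore negative in both sets, each of which holds a single library on one side and has no test of its own. The sets share only the sign of rho and do not match the guides in GC trend. In the negative set rho was -0.67 with the HRAS guide, against -0.62 and -0.33 with the control guide. In the positive set it was 0.42 and 0.11, against 0.76. The part of this remaining trend in the differences was not tested. With the set as a covariate over all 6 libraries, edgeR called CSRNP1, IER3 and ZFP36 lower, 3 of the 10, where 0.353% of all genes were called lower.

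Levels per kb were taken over the longest coding transcript of each gene, and the order can change with that choice. The longest coding transcript of CSRNP2 has 4471 bases, and the median over its transcripts is 630.5. By this measure IER3 was the most abundant of the 10. It stood at 135 ± 9.01 CPM per kb with the HRAS guide and 173 ± 13 CPM per kb with the control guide (SD, n = 3 each). IER2 followed at 54.1 and 62.9 and ZFP36L1 at 46.7 and 51.1 CPM per kb, with the HRAS guide level first. ZFP36 was at 31.0 ± 1.95 CPM per kb with the HRAS guide and 42.9 ± 2.06 with the control guide, and IER5 at 36.2 and 39.9 in that order. With the control guide the libraries of ZFP36 and IER5 overlapped, and with the HRAS guide all libraries of ZFP36 were below those of IER5. IER5L (30.1 and 34.2), ZFP36L2 (25.2 and 28.6) and BTG2 (18.9 and 21.7) came next. CSRNP2 and CSRNP1 were the scarcest, at 8.84 and 4.70 CPM per kb with the HRAS guide, where their libraries were apart. With the control guide they stood at 9.53 and 8.31 CPM per kb and their libraries overlapped. Other neighbours whose libraries overlapped were ZFP36 and IER5L with the HRAS guide, and IER2 and ZFP36L1, IER5 and IER5L, and IER5L and ZFP36L2 with the control guide.

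**Figure D4:**
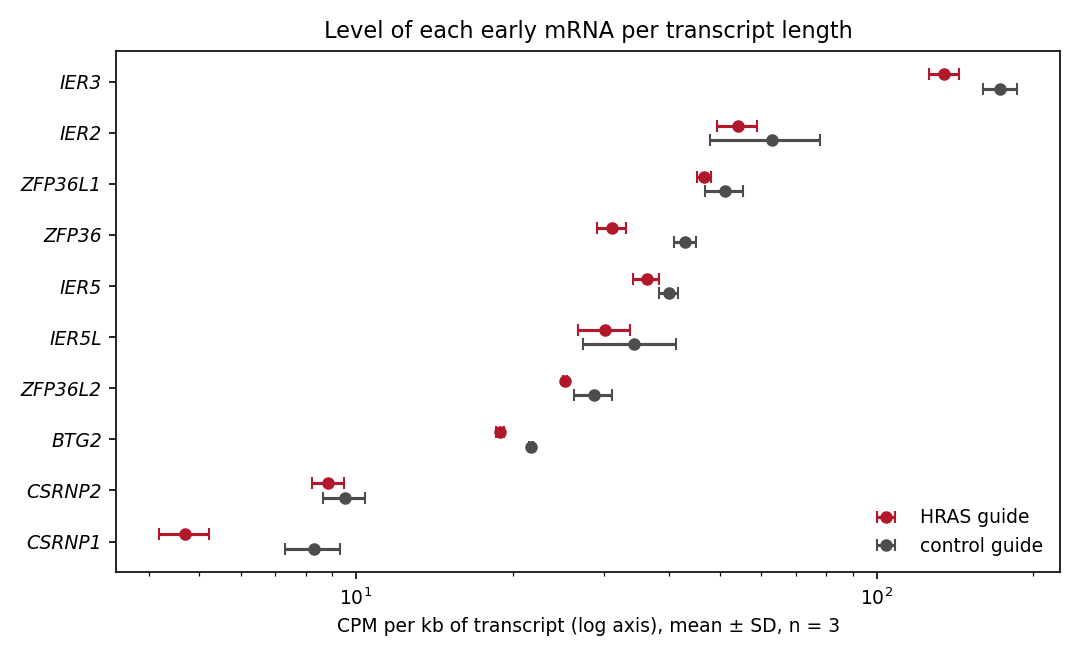
Level of each mRNA in CPM per kb of its longest coding transcript, on a log axis, as mean ± SD of the 3 HRAS guide libraries (red, upper) and the 3 control guide libraries (grey, lower). IER3 is highest (135 and 173 CPM per kb), and CSRNP1 is lowest in both groups (4.70 and 8.31).

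Other genes of the same response and of the ZFP36 pathway were taken from lists, also chosen with earlier results of these data known. Of 50 other immediate early genes 49 were tested. All 49 were negative, 44 of 49 with the GC set as a covariate, and the median was -0.26. In edgeR 0 passed, and 23 had an unadjusted p under 0.05, where 1.7% of all genes had one on the lower side. DESeq2 called 11 of them lower (0.121% of all genes) and the correction from the longest transcript 19 (0.292% of all genes). The 3 of smallest p were ATF3, a stress-induced transcription factor (-0.66 ± 0.09), the GTPase gene RHOB (-0.51 ± 0.07) and the nuclear receptor gene NR4A1 (-0.74 ± 0.11). ATF3 stood at 35.0, 32.4 and 34.2 CPM with the HRAS guide, against 53.2, 54.5 and 52.7 CPM with the control guide. The size of its difference is between those of CSRNP1 and ZFP36.

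Of 24 mRNAs known to carry AU-rich elements bound by ZFP36, 22 were tested, 21 were negative and the median was -0.15, and with the GC set as a covariate 19 were negative and the median was -0.10. In edgeR 0 passed, and 7 had an unadjusted p under 0.05 (1.7% of all genes on the lower side). DESeq2 called 1 lower (0.121% of all genes) and the correction from the longest transcript 5 (0.292% of all genes). VEGFA, an angiogenic growth factor, stood at 99.1 ± 2.26 CPM with the HRAS guide and 139 ± 8.27 CPM with the control guide (SD, n = 3 each). Its log2 fold change was -0.49 ± 0.08, that of the cytokine gene LIF was -0.51 ± 0.12 and that of the cytokine gene CSF2 was -0.52 ± 0.13. SOCS3 is in this list and in the list of other immediate early genes.

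The genes that act with these proteins were not called. Of 24 genes of deadenylation and mRNA decay, 18 were negative with a median of -0.02 and 0 passed, and the smallest p belonged to CNOT10 (-0.13 ± 0.10), CNOT3 (-0.13 ± 0.10) and EDC4 (-0.10 ± 0.09). Of 8 other AU-rich element binding proteins 6 were negative, with a median of -0.02. The smallest p there belonged to PCBP1 (-0.16 ± 0.11), KHSRP (-0.08 ± 0.08) and AUH, which was positive (0.08 ± 0.10). The p38-MK2 kinases and 14-3-3 proteins that control ZFP36 were negative in 9 of 15, with a median of -0.01, led by MAP2K3, MAPK11 and MAP2K6 at -0.18 each. Of 17 genes around HSF1 and the PP2A subunits that IER5 binds 16 were tested and 13 were negative, with a median of -0.06. DNAJB1 (-0.15 ± 0.08), HSPA8 (-0.08 ± 0.06) and BAG3 (-0.11 ± 0.09) had the smallest p there. Of 10 relatives of these families, such as BTG1, BTG3, TOB1 and TOB2, 8 were tested, 4 were negative and 4 positive, and the median was 0.01. ZC3H12A stood at -0.13 ± 0.09, TOB2 at -0.09 ± 0.09 and BTG3 at 0.08 ± 0.10. In these 5 lists 0 genes passed in edgeR, in DESeq2 or after the correction from the longest transcript, and 0 had an unadjusted p under 0.05 in edgeR. The directions of the decay genes and the relatives were not firm. With the GC set as a covariate, 8 of the 24 decay genes and 2 of the 8 relatives were negative. In that fit 5 of the 8 other AU-rich element binding proteins were negative. So were 9 of the 15 genes that control ZFP36 and 12 of the 16 around HSF1.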

How the data were processed

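RNA-seq counts came from the table the authors deposited: whole-number counts per Ensembl gene, not normalized, for 6 libraries. HISAT2, StringTie and DESeq2 were used on build hg38, per the submitters' processing notes, which list no version or role. How reads were counted, the annotation and strandedness: not given in the sources used here. Columns were matched to samples by guide and replicate number. A row with no values (1) was left out.

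Genes passing filterByExpr were scaled by TMM and tested with edgeR 4.0.16 (quasi-likelihood F-test, two-sided, Benjamini-Hochberg over 19836 genes, threshold 0.05) in R 4.3.3, on group alone. CPM uses TMM-scaled totals. SEs come from the F statistic. The correction fits each library's relative log2 CPM (prior count 2) to splines of GC content (5 df) and log10 length (4 df) by robust regression, as edgeR offsets for 19489 genes with GENCODE 29 annotation. Alternatives were DESeq2 1.42.0, limma-voom (limma 3.58.1), other scalings and filters, the replicate block, the set of GC trend and each library left out. Scripts were tested on simulated data.

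Members and lists were chosen with earlier results of these data known. All members are named, with the 3 genes of smallest p of each list. No set test was run. Depth sets the precision, and SEs cover counting error and the spread between libraries.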

Additional observations from a re-analysis of the deposited data

How the results depend on the processing

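All 10 genes kept a negative difference under every alternative except CSRNP2 and ZFP36L1, each at 0.05 with the correction from median transcripts and without control replicate 1. Of the 10, 0 were called without correction, also by limma-voom, with other scalings and with a filter of 1 CPM in 3 libraries. The number called was 2 with DESeq2, with no filter on low counts and with the GC and length correction, and 3 with the correction from the longest transcript or the GC set as covariate. Leaving out a library gave 0 to 2 without correction, 0 to 4 with the correction and 1 to 5 with that from the longest transcript, the highest each time without control replicate 2. The median over the 10 was -0.19, and -0.25 with the GC set as covariate. Leaving out a library moved it between -0.26 (control replicate 1 left out) and -0.17 (HRAS guide replicate 2 left out). Same-numbered libraries did not deviate together, with correlations of -0.19, -0.29 and -0.06. After the GC and length correction these were -0.09, -0.14 and -0.04. Correlations over 3 libraries per group, which also hold the GC trend, cannot show whether same-numbered libraries were prepared together. With the replicate block 0 of the 10 and 1 of all genes were called. With the correction and the block together, 0 of the 10 and 6 of all genes were called. In that fit the edgeR adjusted p was 0.0629 for CSRNP1, 0.33 for IER3 and 0.694 for ZFP36.

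Over the whole table the 2 calls became 24 with DESeq2, 57 with no filter on low counts, 39 with the correction, 62 with that from the longest transcript and 81 with the GC set. Each of limma-voom, DESeq2 size factors and the 1 CPM filter gave 1. Leaving out a library gave 1 to 24 without correction, 7 to 131 with it (8 without control replicate 3 or HRAS guide replicate 1, 17 without HRAS guide replicate 2, 36 without control replicate 1) and 33 to 232 with the longest transcript (34 to 36 without an HRAS guide library), the highest without control replicate 2. HRAS went to -0.09 with the GC set, and between -0.13 and 0.22 without single libraries. The cause of these changes was not tested. CSRNP1 rests on the fewest counts of the 10.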

Other observations

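The profile of the 10 early genes was taken as their median log2 CPM in each library, relative to the mean of the 3 control libraries. It was -0.19, -0.28 and -0.18 in HRAS guide replicates 1 to 3, and -0.07, 0.03 and 0.00 in control replicates 1 to 3. Of the 10, BTG2 lay nearest to this profile, at a root mean square difference of 0.041 over the 6 libraries, and CSRNP1 furthest, at 0.448. Outside the 10, the nearest genes with a mean of at least 5 CPM included IRF2BPL (0.018), SQSTM1 (0.029), TUBB6 (0.033) and DCP1B (0.036). Their log2 fold changes ran from -0.23 ± 0.12 for DCP1B to -0.20 ± 0.08 for IRF2BPL, and none of these 4 passed in edgeR (adjusted p = 1.00 each). This likeness over 6 libraries is a description of level profiles, and some of it rests on the choice of the nearest among many genes.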
